A study of Mus musculus with 12 samples.

Results

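P10 and P12 are a pair of sub-populations sorted from ML23, a leukemia line of the mouse, and their RNA levels were compared here library by library. By the sort gates of the study, P10 held cells that were CD9-, cKit+, Mac1+ and CD48+, and P12 held cells that were CD9-, cKit-, Mac1- and CD48+. The gates therefore differ in cKit and in Mac1 at once, so what goes with either marker alone cannot be told apart. Both share everything else: ML23 was made from cells of an rtTA transgenic mouse of Jax strain 6965 with lentiviruses that overexpress *Meis1*, HoxA9 and HoxB5, it was passaged in C57BL/6 mice, and the sorted cells carried the ZsGreen+ reporter. ML23 is 1 line, so nothing here speaks for other leukemias, and the sample labels name its source only as hematopoietic stem cells.

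The comparison takes 6 of the 12 RNA-seq libraries of the series, 3 of P10 and 3 of P12. P9 (CD9+ cKit+ Mac1+ CD48-) and P11 (CD9- cKit+ Mac1- CD48+) make up the other 6. By the labels each library came from 100 sorted cells amplified from poly-A RNA, whereas the methods of the study name a directional kit, so whether reads were assigned by strand is not settled here. The study took cells from 3 diseased mice, and each gate has 3 libraries. The labels do not say which libraries share a mouse, so p-values measure the spread between these libraries. Values are CPM, counts scaled to a common library total, and a level or a difference between sub-populations is a share of that total: fewer cells of a kind and less RNA per cell cannot be told apart. All 12499 genes of 20202 that reached 1 CPM in at least 3 of the 6 libraries were tested.

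Monocytes and neutrophils both arise from myeloid progenitors in the bone marrow. Progenitors divide and express the receptors for growth factors, whereas maturing monocytes take on receptors for antibodies, complement and microbial products, and lysosomal enzymes. Mac1 is the integrin made of the products of *Itgam* and *Itgb2*, and cKit is the receptor of stem cell factor. Dividing cells express the genes of DNA replication and, later in the cycle, those of mitosis. Nonclassical monocytes, which patrol vessels, are marked in the mouse by *Nr4a1*, *Ace* and *Treml4* among other genes, and classical monocytes by *Ly6c2* and *Ccr2*.

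The totals behind the values, read from the spacing of the lowest values, were 18246140, 21295207 and 17868183 alignments in P10 and 13441846, 17760557 and 17277952 alignments in P12. At these totals 1 CPM stands for 13.4 to 21.3 alignments, so lower values rest on few alignments and their counting error is large. Some libraries stood apart from the others of their gate, P12 replicate 3 and P10 replicate 3 foremost, and this bears on the results that follow. To place each library, genes were called with that library left out, and its position was set at 0 where it equalled the mean of the rest of its own sub-population and at 1 where it equalled the mean of the other one. P10 replicates 1, 2 and 3 had median positions of 0.028, 0.0084 and 0.21 over 1330, 1315 and 1580 such genes, against -0.065, -0.18 and 0.47 for P12 replicates 1, 2 and 3 over 1267, 1151 and 2065 genes. P12 replicate 3 thus lay nearly midway towards P10 (quartiles 0.25 to 0.67), and 45.7% of its genes were past the midpoint. Over all genes tested, P10 replicates 1 and 2 differed from each other by a root mean square of 0.30 on the log2 scale, and P12 replicate 3 differed from them by 0.67 and 0.66, against 0.70 and 0.61 from P12 replicates 1 and 2. P10 replicate 3 stood apart in another way, with 61 genes at 10 CPM or more and at least 4-fold above the mean of P10 replicates 1 and 2. Of these 32 had their highest mean in P9, but the share of all genes with their highest mean there was not counted. P12 replicate 3 had 42 genes at that level and fold over P12 replicates 1 and 2. By the same measure P12 replicate 1 had 31 genes, P12 replicate 2 had 5, P10 replicate 2 had 1 and P10 replicate 1 none. Of the 42 genes, 38 were called higher in P10 when P12 replicate 3 was left out, where 7.9% of all 12499 genes tested were. The 42 were chosen as low in P12 replicates 1 and 2 relative to replicate 3, which favours that call in advance. The libraries numbered 3 carry letters in the labels where the others carry digits, and whether this marks a batch is not stated.

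Of the 12499 genes tested, 736 (5.89%) were higher and 794 (6.35%) were lower in P10 than in P12, where a call asked of limma an adjusted p below 0.1 together with a change of over 2-fold. The upward differences were larger: 210 genes were more than 4-fold higher and 14 more than 4-fold lower, and the median log2 difference of the called genes was 1.55 upwards and -1.22 downwards. Counts of list members called over all 6 libraries can be read against these shares of 5.89% and 6.35%. The median of all genes tested was -0.15, and each log2 value below can be read against it. After the 6 libraries were rescaled by their median ratio it was -0.03, with 871 genes higher and 554 lower, so calls upwards made up 61.1% of all calls instead of 48.1%. That rescaling kept all 736 upward calls and 552 of the downward ones. Without P12 replicate 3, 988 genes (7.9%) were higher and 1129 (9.03%) lower, among them 719 and 775 of the calls above. Without P10 replicate 3, 750 (6.0%) were higher and 919 (7.35%) lower, among them 656 and 695.

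**Figure D1:**
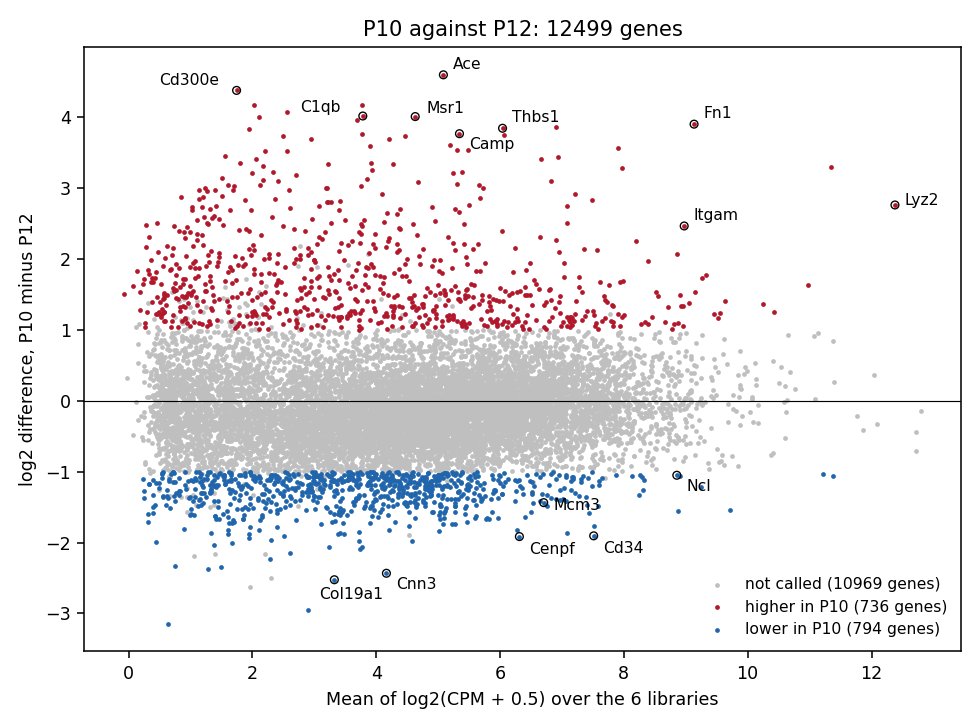
Each of the 12499 genes by its mean log2(CPM + 0.5) over the 6 libraries (x axis) and its log2 difference, P10 minus P12 (y axis). The 736 genes called higher in P10 (red) reach further from 0 than the 794 called lower (blue), and 15 genes of the text are labelled.

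The sort markers came first. *Itgam*, on chromosome 7 from 128062640 to 128118492, which encodes the alpha subunit of Mac1, was at 1108, 1114 and 1329.8 CPM in P10, against 139, 130.0 and 538 CPM in P12 (log2 difference 2.46, standard error 0.40, limma adjusted p = 0.0014). P10 lay above P12 in every library, and P12 replicate 3 was closer to P10 than the other P12 libraries were. *Itgb2*, for the beta subunit, had 1088, 1215 and 1272 CPM in P10, against 257, 258 and 642 CPM in P12 (log2 difference 1.77, standard error 0.29, limma adjusted p = 0.0015), with the same order of the libraries. *Kit*, on chromosome 5 from 75574916 to 75656723, had only 8.44, 8.07 and 21.5 CPM in P10, against 5.73, 4.45 and 5.38 CPM in P12 (log2 difference 1.07, standard error 0.34, limma adjusted p = 0.031), while P9 averaged 54.5 and P11 63.2 CPM. P10, sorted as cKit+, thus held little more *Kit* RNA than P12, and P10 replicate 3 alone exceeded 10 CPM. The call was lost without that library, with a log2 difference of 0.63 and a limma adjusted p of 0.10, and without P12 replicate 2. *Cd48*, which both gates select, had 103, 97.4 and 96.3 CPM in P10, against 56.5, 80.4 and 108 CPM in P12 and overlapped (log2 difference 0.32, standard error 0.20, limma adjusted p = 0.24). *Cd9*, which both gates exclude, was at 1.26, 1.60 and 8.45 CPM in P10, against 3.50, 2.36 and 1.16 CPM in P12 (log2 difference 0.27, limma adjusted p = 0.73), and P10 replicate 3 held the highest of these values.

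Of the factors used to make ML23, *Meis1* was at 481, 554 and 404 CPM in P10, against 764, 829.5 and 591 CPM in P12 (log2 difference -0.60, limma adjusted p = 0.12), below P12 in every P10 library but not past the test. *Hoxa9* had 1.81, 1.69 and 1.29 CPM in P10, against 11.8, 8.72 and 1.79 CPM in P12 (log2 difference -1.61, limma adjusted p = 0.048), and P12 replicate 3 lay at the P10 level, so the groups overlapped. Its call was lost without P10 replicate 2, P10 replicate 3, P12 replicate 1 or P12 replicate 2. Reads of the vectors and of the endogenous genes cannot be told apart in these values, and Hoxb5 is not analysed here. Surface genes that the study took up behaved in different ways. *Cd34*, a sialomucin of progenitors on chromosome 1 from 194938819 to 194961280, was at 91.9, 95.2 and 94.3 CPM in P10, against 354, 406 and 305 CPM in P12 (log2 difference -1.91, standard error 0.15, limma adjusted p = 2.0e-05). Its 3 P10 libraries lay within a few CPM of each other and far under all P12 libraries. *Cd84*, a receptor of the SLAM family, was higher (289, 268 and 265 CPM in P10, against 92.2, 119 and 189 CPM in P12, log2 difference 1.10, limma adjusted p = 0.0031), although the call was lost without P12 replicate 1. *Cd47*, which signals to phagocytes through SIRP alpha, had a log2 difference of -0.57 and *Cd93* one of -0.21, and neither passed both thresholds. Its partner *Sirpa* was higher, at 471, 466 and 486 CPM in P10, against 196, 171 and 318 CPM in P12 (log2 difference 1.10, limma adjusted p = 0.0014), a call that was lost without P12 replicate 2. Of the 9 tested genes that the study lists as drug targets, *Cd33*, *Sirpa* and *Havcr2* rose and none fell (median 0.60). Over all genes tested 5.89% rose and 6.35% fell. *Havcr2*, for the inhibitory receptor Tim-3, was at 17.0, 14.6 and 17.6 CPM in P10, against 1.49, 1.52 and 1.97 CPM in P12 (log2 difference 2.97, standard error 0.36, limma adjusted p = 0.00034).

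**Figure D2:**
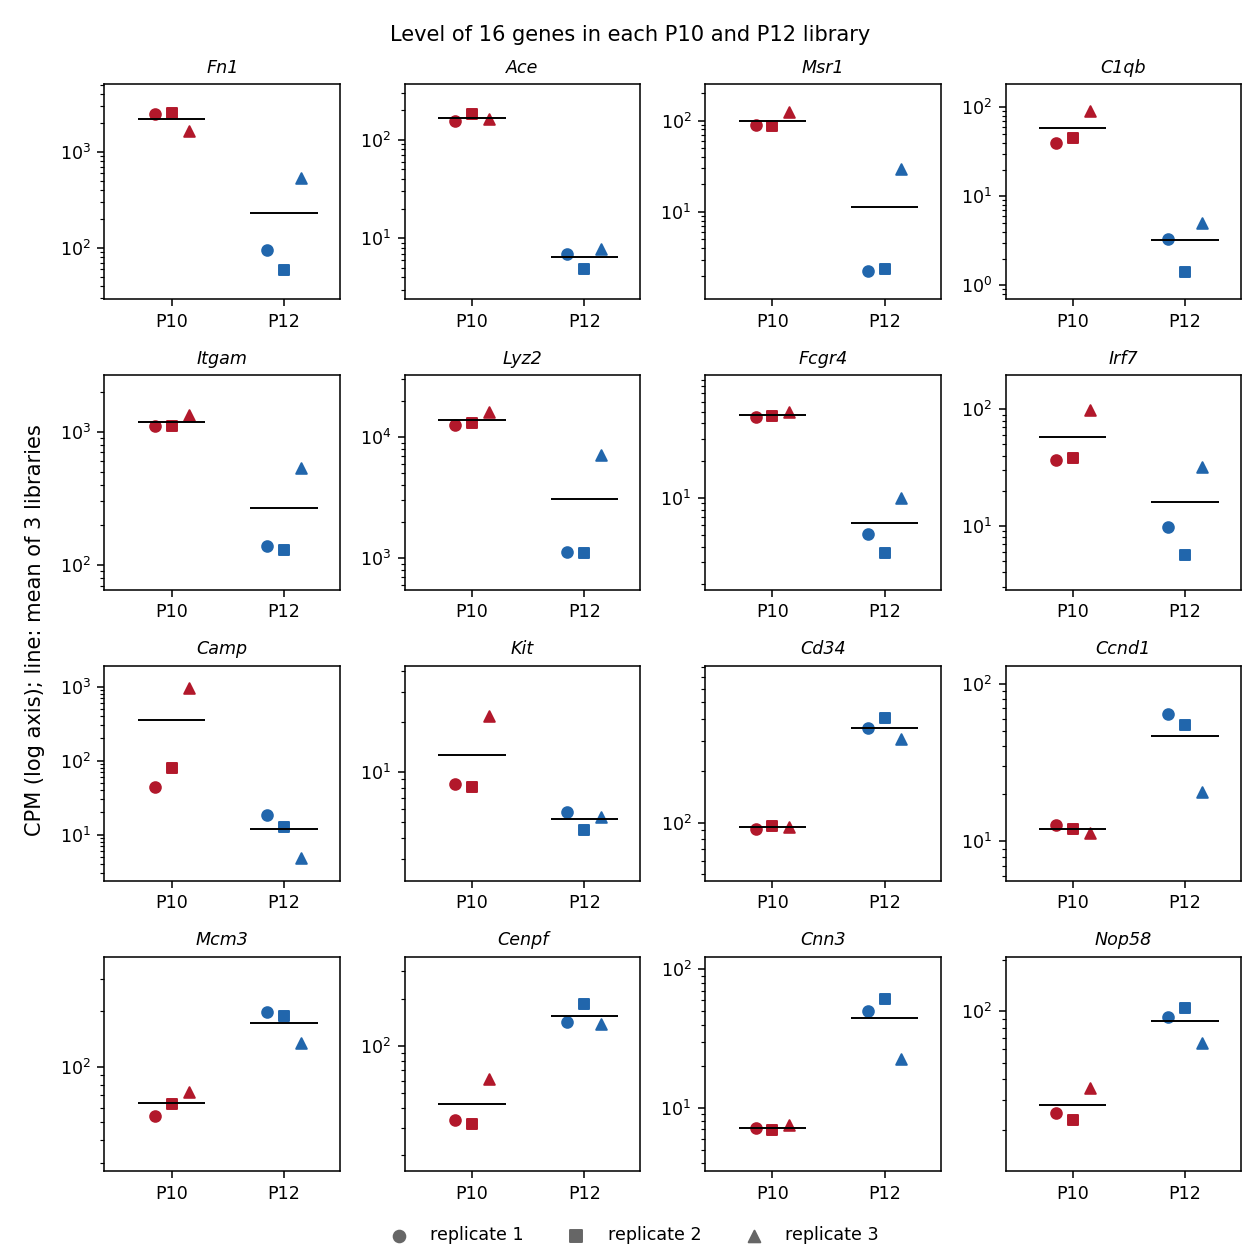
CPM (log axis) of 16 genes in each library of P10 (red, left) and P12 (blue, right), with a symbol per replicate number and a line at the mean of 3 libraries. P12 replicate 3 (blue triangle) lies towards P10 for *Fn1*, *Itgam*, *Lyz2* and *Ccnd1* but not for *Ace*, *Cd34* or *Cenpf*, and P10 replicate 3 (red triangle) is at 945 CPM of *Camp*, above the 44.0 and 79.1 CPM of the others.

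Whether P10 is monocyte-like was checked against 18 monocyte markers. Of these 9 rose and none fell, with a median log2 difference of 1.25 against -0.15 over all genes, and their summed level was 11054, 11444 and 9779 CPM in P10, against 5708, 5941 and 8938 CPM in P12. Without P12 replicate 3, 12 rose. The genes that rose included matrix genes of classical monocytes and *Ace*, *Nr4a1* and *Treml4* of nonclassical ones. The list also holds *Spn*, not described here, and *Cx3cr1*, which stayed under 2-fold. The genes that rose thus do not stand for all nonclassical markers. *Fn1*, which encodes fibronectin on chromosome 1 from 71585520 to 71653201, was at 2452, 2507 and 1656 CPM in P10, against 94.6, 59.3 and 541 CPM in P12 (log2 difference 3.90, standard error 0.61, limma adjusted p = 0.0012). *Vcan*, for the proteoglycan versican, was at 512, 466 and 393 CPM in P10, against 17.5, 15.8 and 104 CPM in P12 (log2 difference 3.86, standard error 0.54, limma adjusted p = 0.00068). P12 replicate 3 was several fold above the other P12 libraries in both genes. *Ace*, for angiotensin-converting enzyme on chromosome 11 from 105967945 to 105989965, showed the largest difference of the rule for named genes, at 155, 182 and 162 CPM in P10, against 6.92, 4.84 and 7.81 CPM in P12 (log2 difference 4.59, standard error 0.46, limma adjusted p = 0.00011). *Nr4a1*, for a nuclear receptor that nonclassical monocytes need in the mouse, had 62.8, 64.2 and 55.9 CPM in P10, against 8.63, 4.73 and 4.17 CPM in P12 (log2 difference 3.34, standard error 0.41, limma adjusted p = 0.00039). Neither *Ace* nor *Nr4a1* put P12 replicate 3 near P10, and *Treml4* (16.2, 13.0 and 21.8 CPM in P10, against 0.372, 0.675 and 0.695 CPM in P12, log2 difference 4.00), *Adgre4* (log2 difference 3.34) and *Fcgr4* (log2 difference 2.92) rose as well.

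P12 was not without monocyte genes. *Csf1r*, the receptor of the growth factor M-CSF, was at 825, 869.9 and 831 CPM in P10, against 353, 367 and 680.1 CPM in P12 (log2 difference 0.92, standard error 0.21, limma adjusted p = 0.0079), just under the 2-fold threshold, and P9 averaged 26.4 CPM. Further markers of the list, named after their values were seen, had high levels on both sides: *F13a1*, a coagulation factor subunit, was at 3238, 3183 and 2484 CPM in P10, against 1946, 2539.8 and 2974 CPM in P12 (log2 difference 0.27, limma adjusted p = 0.30). *Ly6c2* was at 1590.3, 1982 and 1995 CPM in P10, against 1479, 1296 and 2327 CPM in P12 (log2 difference 0.17, limma adjusted p = 0.59). These libraries overlapped. *Ccr2*, the receptor that draws monocytes from the marrow, had a log2 difference of 0.94, *Cx3cr1* of 0.61, and *Irf8*, named likewise and a factor of monocyte and dendritic cell fate, of -0.59, none past 2-fold. By its markers, then, P10 held more RNA of 9 of 18 monocyte genes than P12 did, while several defining markers did not separate them.

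Macrophage markers rose further. Of 11 tested, 8 rose and 1 fell, with a median of 2.19. *C1qa*, *C1qb* and *C1qc*, which lie side by side on chromosome 4 and encode the chains of complement C1q, were all higher. *C1qb* had 39.8, 45.6 and 90.3 CPM in P10, against 3.35, 1.41 and 4.98 CPM in P12 (log2 difference 4.01, standard error 0.42, limma adjusted p = 0.00016). *C1qa* was at 9.97, 12.2 and 38.4 CPM in P10, against 0.744, 0.169 and 0.579 CPM in P12 (log2 difference 4.16, limma adjusted p = 0.00016). *C1qc* was at 15.0, 16.1 and 53.3 CPM in P10, against 1.19, 0.45 and 1.33 CPM in P12 (log2 difference 4.06, limma adjusted p = 0.00030), and in all 3 genes P10 replicate 3 was the highest and no P12 library came near P10. *Apoe*, for a lipid carrier, was at 345, 396 and 489.9 CPM in P10, against 51.3, 37.3 and 78.7 CPM in P12 (log2 difference 2.92, standard error 0.24, limma adjusted p = 3.2e-05). *Mertk*, a receptor for dying cells, was at 6.52, 8.07 and 11.6 CPM in P10, against 0.595, 0.394 and 1.04 CPM in P12 (log2 difference 2.97, limma adjusted p = 0.00039). *Cd163*, the member that fell and named after its values were seen, is a scavenger receptor for hemoglobin and had 15.5, 18.3 and 16.3 CPM in P10, against 44.5, 44.6 and 28.0 CPM in P12 (log2 difference -1.17, limma adjusted p = 0.011). *Adgre1*, the gene of the F4/80 antigen named here after its values were seen, was at 201, 199 and 169 CPM in P10, against 62.6, 69.0 and 154 CPM in P12 (log2 difference 1.11, limma adjusted p = 0.015), with P12 replicate 3 close under P10. Its call was lost without P12 replicate 1 or P12 replicate 2.

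The other genes with the largest upward differences were mostly surface receptors and secreted proteins. *Msr1*, the class A scavenger receptor of macrophages, was at 88.5, 87.2 and 124 CPM in P10, against 2.23, 2.36 and 29.6 CPM in P12 (log2 difference 4.00, standard error 0.68, limma adjusted p = 0.0018). *Cd300e*, an activating receptor of monocytes, had 11.6, 15.5 and 17.8 CPM in P10, against 0.298, 0.394 and 0.0579 CPM in P12 (log2 difference 4.37, limma adjusted p = 0.00019), and its P12 values stand for few alignments. *Sirpb1b* had 54.7, 55.8 and 61.4 CPM in P10, against 1.87, 0.439 and 14.5 CPM in P12 (log2 difference 4.16, limma adjusted p = 0.0015), but it belongs to a family of near-identical copies among which reads may have been split. In *Msr1* and *Sirpb1b* P12 replicate 3 stood well above the other P12 libraries and still under P10. *Pla2g7*, for a lipase that inactivates platelet-activating factor, was at 52.1, 49.9 and 48.8 CPM in P10, against 2.83, 1.66 and 4.43 CPM in P12 (log2 difference 3.95, standard error 0.29, limma adjusted p = 2.0e-05). *Thbs1*, for thrombospondin, was at 249, 264 and 233 CPM in P10, against 13.5, 11.3 and 31.4 CPM in P12 (log2 difference 3.84, standard error 0.29, limma adjusted p = 2.0e-05). Both were among the steadiest differences of the comparison, with the 3 P10 libraries close to each other. *Cmklr1*, the receptor of chemerin, had 9.81, 10.04 and 27.9 CPM in P10, against 0.223, 0.338 and 1.27 CPM in P12 (log2 difference 3.83, limma adjusted p = 0.00034).

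**Figure D3:**
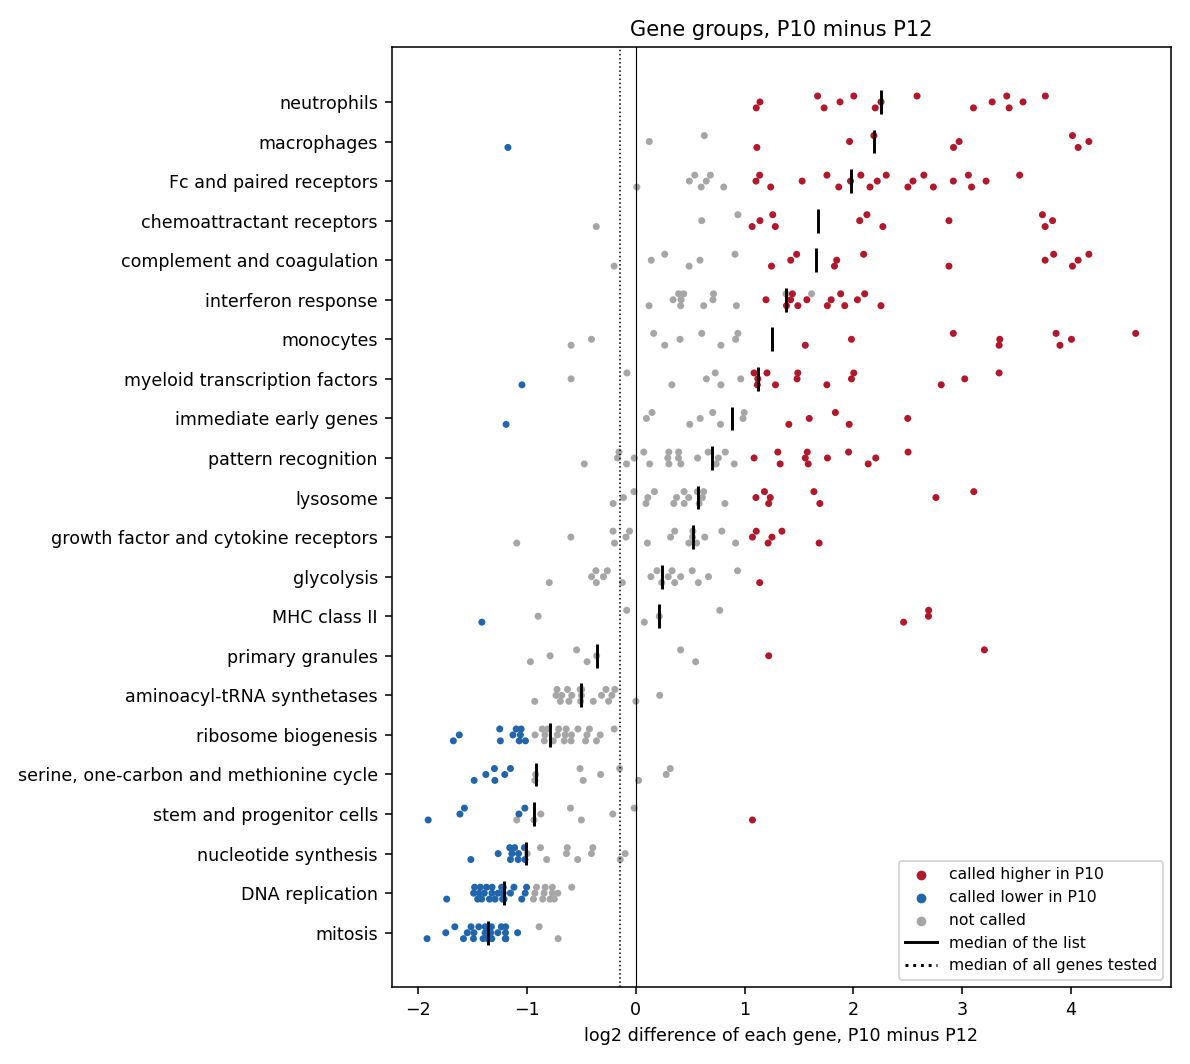
log2 difference, P10 minus P12, of each tested gene in 22 gene groups (x axis), red where called higher in P10, blue where called lower and grey where not called, with a black line at the median of the group and a dotted line at that of all genes tested (-0.15). Groups of myeloid receptors and enzymes lie to the right, and those of the cell cycle and of biosynthesis to the left.

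Receptors of phagocytes moved together. Of 27 tested Fc and paired receptor genes, a list that shares *Fcgr4* with the monocyte markers, 20 rose and none fell, with a median of 1.97. All 3 P10 libraries lay above all 3 P12 libraries in 23 of them, where 14.8% of all genes tested did so. *Fcgr4*, an activating receptor for IgG, was at 44.7, 45.6 and 49.1 CPM in P10, against 5.06, 3.60 and 10.01 CPM in P12 (log2 difference 2.92, standard error 0.29, limma adjusted p = 0.00010). *Cd300lf*, an inhibitory receptor for lipids, had 85.8, 83.8 and 62.8 CPM in P10, against 9.82, 7.06 and 19.5 CPM in P12 (log2 difference 2.73, standard error 0.31, limma adjusted p = 0.00026), and *Cd33* 249, 241 and 182 CPM in P10, against 59.4, 44.2 and 33.9 CPM in P12 (log2 difference 2.30, standard error 0.18, limma adjusted p = 2.1e-05). P12 replicate 3 had the highest P12 level in *Fcgr4* and *Cd300lf* but the lowest in *Cd33*. Among receptors for chemoattractants, 11 of 14 tested rose and none fell (median 1.67). *C5ar1*, for the complement fragment C5a, was at 48.3, 55.2 and 46.2 CPM in P10, against 2.90, 1.80 and 6.02 CPM in P12 (log2 difference 3.76, standard error 0.29, limma adjusted p = 2.0e-05). *Fpr2*, for formyl peptides, was at 85.5, 82.9 and 72.8 CPM in P10, against 4.54, 2.81 and 12.8 CPM in P12 (log2 difference 3.74, standard error 0.36, limma adjusted p = 8.6e-05). *C5ar2* (log2 difference 2.27), *Ltb4r1* for leukotriene B4 (log2 difference 2.12) and *Ptafr* for platelet-activating factor (log2 difference 1.26) rose too, and P9 held more of *C5ar1* and *Fpr2* than P10, with means of 408 and 287 CPM.

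Of 30 pattern recognition genes 11 rose and none fell (median 0.70), and without P12 replicate 3, 15 rose. *Tlr13*, a sensor of bacterial ribosomal RNA in the mouse, was at 352, 370.1 and 305 CPM in P10, against 52.4, 59.5 and 148 CPM in P12 (log2 difference 2.14, standard error 0.30, limma adjusted p = 0.00068). *Tlr7*, which senses single-stranded RNA, had 168, 151 and 193 CPM in P10, against 43.7, 42.4 and 98.2 CPM in P12 (log2 difference 1.58, limma adjusted p = 0.0015). *Tlr2*, a receptor for bacterial lipoproteins, had 72.8, 74.2 and 69.5 CPM in P10, against 21.6, 23.9 and 46.5 CPM in P12 (log2 difference 1.31, limma adjusted p = 0.0019). In each of them P12 replicate 3 lay between the other P12 libraries and P10. The C-type lectins *Clec4e* (log2 difference 1.58) and *Clec4d* (log2 difference 1.96) rose as well. Growth factor and cytokine receptors were less uniform, with 6 of 22 higher and none lower (median 0.52). *Tnfrsf1b*, a receptor of TNF, was at 462, 472 and 436 CPM in P10, against 109, 106 and 247 CPM in P12 (log2 difference 1.68, standard error 0.26, limma adjusted p = 0.0010). *Il17ra* was at 1165, 1250.3 and 841 CPM in P10, against 392, 391 and 636 CPM in P12 (log2 difference 1.22, limma adjusted p = 0.0026), and *Il10ra* had a log2 difference of 1.34. *Flt3*, the receptor of a progenitor growth factor, was at 198, 214 and 65.7 CPM in P10, against 421, 501 and 129 CPM in P12 (log2 difference -1.09, limma adjusted p = 0.18). In *Flt3* the libraries numbered 3 were the lowest of both sub-populations, and the groups overlapped. Of 18 integrin and selectin genes 3 rose and 1, *Pecam1*, fell (median 0.43), next to 5.89% and 6.35% of all genes tested. Among the 3 are *Itgam* and *Itgb2*, whose product Mac1 set the gates apart, so their rise is no separate result. Besides the Mac1 genes *Itgax*, for the integrin alpha subunit CD11c, rose, at 5.97, 7.62 and 11.04 CPM in P10, against 0.893, 1.80 and 1.78 CPM in P12 (log2 difference 2.13, limma adjusted p = 0.00090). *Itgal*, for the alpha subunit of LFA-1, stayed under 2-fold at 615, 643 and 553 CPM in P10, against 322, 308 and 396 CPM in P12 (log2 difference 0.83, limma adjusted p = 0.0012).

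The promoters of some of these receptors and of the cell cycle genes below are shown because their genes moved together. RefSeq (GRCm38.p6, the sequence of mm10) gives 250 bases before to 50 after each start, and 8791 of 10872 protein-coding genes tested matched, each with the start nearest to the one in the deposited table. PU.1, an ETS factor of myeloid cells, binds purine-rich sites, searched on both strands as GAGGAAGT or AGAGGAAG, which overlap in part. Such letters occurred in 5 of the 24 matched promoters among 29 protein-coding genes of the pattern recognition list (20.8%), against 592 of all 8791 (6.73%). Of the receptor genes, *Fcgr4* and *Cd300lf* are printed with *Tlr13*, with these letters and those of the other motifs spelled out below in capitals. The printed genes were picked by hand and each holds PU.1 letters. Promoters of their lists without such letters are not printed, so the printed ones do not stand for the lists. Fewer than 80% of the Fc and paired receptor genes matched, so a share for that list is void and is not given.
*Fcgr4*, chr1:171018676-171018975, plus strand: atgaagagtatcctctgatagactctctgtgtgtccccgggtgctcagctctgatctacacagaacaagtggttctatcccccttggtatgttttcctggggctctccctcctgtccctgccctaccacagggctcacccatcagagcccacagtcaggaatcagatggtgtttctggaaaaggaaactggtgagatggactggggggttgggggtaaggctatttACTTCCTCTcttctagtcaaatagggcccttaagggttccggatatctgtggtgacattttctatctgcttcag
*Cd300lf*, chr11:115133943-115134242, minus strand: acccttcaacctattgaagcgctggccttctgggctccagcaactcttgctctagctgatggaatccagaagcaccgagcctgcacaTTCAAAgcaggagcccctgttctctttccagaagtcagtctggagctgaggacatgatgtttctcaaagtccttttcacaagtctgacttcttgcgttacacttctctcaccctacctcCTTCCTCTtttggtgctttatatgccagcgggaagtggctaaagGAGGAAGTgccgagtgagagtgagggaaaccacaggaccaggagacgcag
*Tlr13*, chrX:106143025-106143324, plus strand: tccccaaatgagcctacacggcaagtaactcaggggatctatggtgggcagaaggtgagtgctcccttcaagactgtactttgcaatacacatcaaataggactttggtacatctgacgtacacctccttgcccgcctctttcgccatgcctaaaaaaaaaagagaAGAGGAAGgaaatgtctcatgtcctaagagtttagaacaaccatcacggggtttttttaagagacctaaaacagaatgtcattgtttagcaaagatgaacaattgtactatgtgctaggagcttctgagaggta

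Lysosomal genes rose in 8 of 24 members with none lower (median 0.57), and their summed level was 23079.5, 24736 and 27089.5 CPM in P10, against 6425, 6339.7 and 15057 CPM in P12. In P10 the larger share of that sum was *Lyz2*, for the lysozyme of phagocytes on chromosome 10 from 117277331 to 117282322, at 12542, 13089 and 16169.6 CPM in P10, against 1114, 1092 and 7045 CPM in P12 (log2 difference 2.76, standard error 0.55, limma adjusted p = 0.0038). P12 replicate 3 held several times more *Lyz2* than the other P12 libraries and remained under all P10 libraries. *Psap*, for the precursor of saposins, had 3557, 4089 and 3082 CPM in P10, against 907, 983 and 1670.2 CPM in P12 (log2 difference 1.64, standard error 0.22, limma adjusted p = 0.00059), and the proteases *Ctsb* (log2 difference 1.24, limma adjusted p = 0.00057), *Ctsc* (log2 difference 1.22) and *Ctsd* (log2 difference 1.10) rose, the call of *Ctsc* being lost without P12 replicate 1 and that of *Ctsd* without P12 replicate 2. The membrane protein gene *Lamp1*, named after its value was seen, had a log2 difference of 0.17 and did not. In the phagocyte oxidase, 2 of 6 genes rose, and 4 without P12 replicate 3: *Cybb*, for the catalytic subunit, at 1988, 1972 and 1900.3 CPM in P10, against 657, 623 and 1059 CPM in P12 (log2 difference 1.37, standard error 0.18, limma adjusted p = 0.00057), and *Cyba* (log2 difference 1.04, limma adjusted p = 0.0031), whose call was lost without P10 replicate 3, P12 replicate 1 or P12 replicate 2. Complement and coagulation genes rose in 12 of 18 members with none lower (median 1.65), a list that shares genes such as *C1qa* with the macrophage markers above. *Plaur*, the urokinase receptor, was at 60.3, 66.1 and 55.1 CPM in P10, against 13.8, 11.2 and 29.8 CPM in P12 (log2 difference 1.83, limma adjusted p = 0.00089).

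MHC class II genes did not move as 1 group: 3 of 9 rose, 1 fell and the median was 0.22. *Cd74*, for the invariant chain, was at 17.5, 22.3 and 79.0 CPM in P10, against 5.58, 2.81 and 9.20 CPM in P12 (log2 difference 2.46, standard error 0.51, limma adjusted p = 0.0044). *H2-Aa* was at 3.73, 4.88 and 21.2 CPM in P10, against 0.223, 0.844 and 1.39 CPM in P12 (log2 difference 2.69, limma adjusted p = 0.0037). P10 replicate 3 held severalfold more of both than the other P10 libraries. *H2-Eb1* (log2 difference 2.69) rose too. *H2-Oa*, for a chain that dampens peptide loading, was lower, at 2.73, 3.99 and 2.63 CPM in P10, against 12.5, 9.28 and 6.25 CPM in P12 (log2 difference -1.41, limma adjusted p = 0.017).

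Of 21 myeloid transcription factors tested 13 rose and 1 fell, with a median of 1.12, and 7 rose without P12 replicate 2. *Bhlhe40* was at 22.3, 25.7 and 23.4 CPM in P10, against 2.23, 2.98 and 3.88 CPM in P12 (log2 difference 2.81, standard error 0.27, limma adjusted p = 8.6e-05). *Klf2* was at 53.7, 54.0 and 46.6 CPM in P10, against 18.6, 13.7 and 23.1 CPM in P12 (log2 difference 1.48, limma adjusted p = 0.0011). *Id2* was at 84.5, 86.0 and 51.8 CPM in P10, against 26.4, 23.0 and 27.0 CPM in P12 (log2 difference 1.49, limma adjusted p = 0.00049). All 3 kept P12 replicate 3 near the other P12 libraries. *Irf5*, a factor of inflammatory macrophages, had 305, 309.8 and 273 CPM in P10, against 123, 97.8 and 209 CPM in P12 (log2 difference 1.12, limma adjusted p = 0.0036), with P12 replicate 3 between the groups, and its call was lost without P12 replicate 2. The factor that fell, named after its values were seen, was *Myc*, which drives growth, at 38.0, 40.6 and 52.7 CPM in P10, against 122, 89.5 and 66.5 CPM in P12 (log2 difference -1.04, limma adjusted p = 0.0038). That call was lost without P10 replicate 1, P10 replicate 2 or P12 replicate 1 and after rescaling over the 6 libraries. *Spi1*, the gene of PU.1 named after its value was seen, had a log2 difference of 0.65 and did not pass 2-fold. Immediate early genes, which respond within minutes to signals and to handling of cells, rose in 5 of 14 members and fell in 1 (median 0.88). Without P12 replicate 3, 8 rose, and without P12 replicate 1 none fell. *Dusp1*, a phosphatase of MAP kinases, was at 23.4, 22.1 and 21.8 CPM in P10, against 5.36, 1.97 and 4.11 CPM in P12 (log2 difference 2.5, standard error 0.31, limma adjusted p = 0.00040). *Egr1* was at 4.38, 5.30 and 7.11 CPM in P10, against 1.56, 0.844 and 1.22 CPM in P12 (log2 difference 1.83, limma adjusted p = 0.0025).

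All 15 neutrophil markers rose, with a median of 2.25, but at levels far under those of P9 and unevenly across the P10 libraries. Their summed level was 2607, 3365 and 13696 CPM in P10, against 709, 657 and 1062 CPM in P12, and it was 120998 to 135237 CPM in P9. *Camp*, for an antimicrobial peptide of the secondary granules on chromosome 9 from 109847379 to 109849618, was at 44.0, 79.1 and 945 CPM in P10, against 18.5, 12.8 and 4.80 CPM in P12 (log2 difference 3.76, standard error 0.99, limma adjusted p = 0.014). *Ngp*, for another granule protein, was at 263, 491 and 4331 CPM in P10, against 106, 94.8 and 33.5 CPM in P12 (log2 difference 3.56, standard error 0.82, limma adjusted p = 0.0076). *Ltf*, for lactoferrin, had 140.1, 211 and 1224 CPM in P10, against 50.7, 64.7 and 16.7 CPM in P12 (log2 difference 3.10, limma adjusted p = 0.0054). In these 3 genes P10 replicate 3 was far above the other P10 libraries, and P12 replicate 3 was the lowest library of all. *Lcn2*, for lipocalin 2, was steadier, at 555, 638 and 1315 CPM in P10, against 62.9, 60.2 and 134 CPM in P12 (log2 difference 3.27, standard error 0.36, limma adjusted p = 0.00021), and *Mmp8*, for a collagenase, was highest in P10 replicates 1 and 2, at 504, 538 and 306 CPM in P10, against 129, 106 and 186 CPM in P12 (log2 difference 1.67, limma adjusted p = 0.00096). The P10 replicate 3 value of *Camp* was 18.8% of the P9 mean, that of *Ngp* 11.4%, of *S100a9*, named after its values were seen, 11.2% and of *Ly6g* 2.40%, and its *Cd9* level was 3.26% of the P9 mean. Without P10 replicate 3, 12 of the 15 were still called, and without P12 replicate 3, 13. Whether P9 cells in that library have a part in these levels was not tested.

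**Figure D4:**
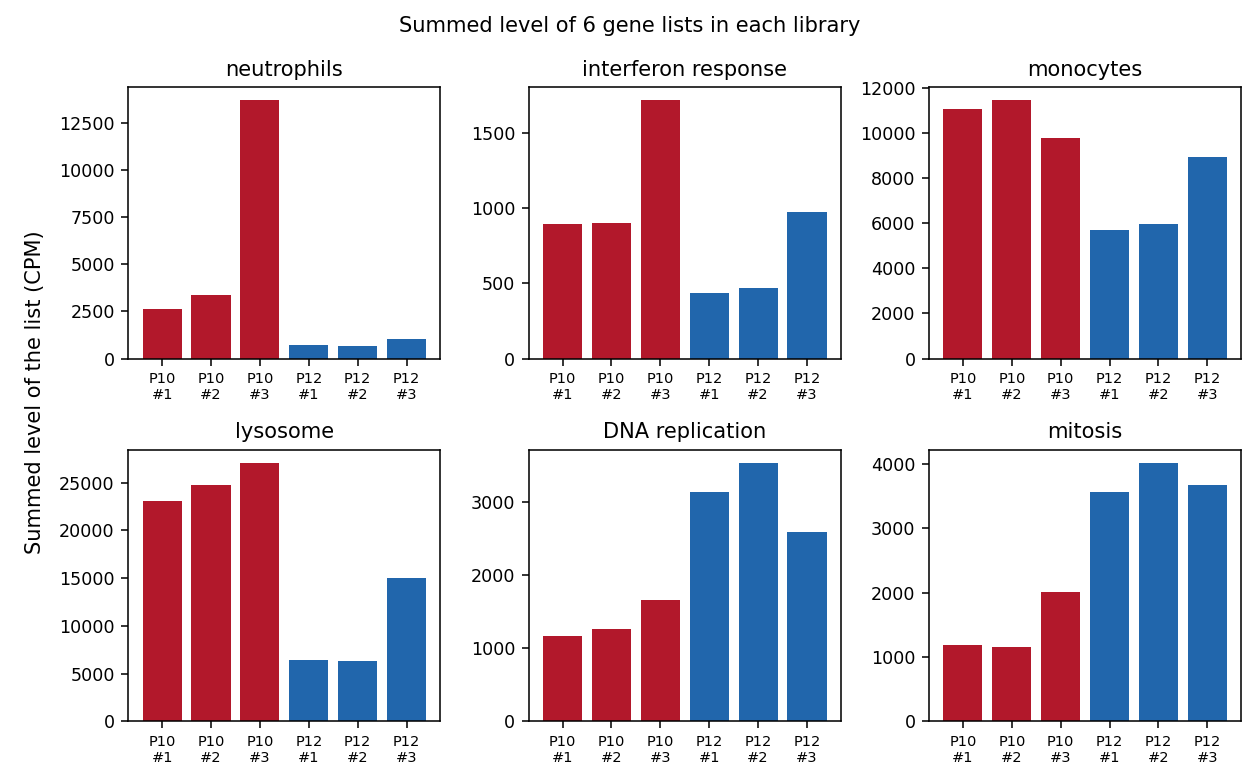
Summed CPM of the genes of 6 lists in each library, with P10 in red on the left and P12 in blue on the right of each panel, and axes from 0. P10 replicate 3 stands at 13696 CPM of neutrophil genes and 1718 CPM of interferon response genes, P12 replicate 3 stands towards P10 for lysosome genes, and mitosis genes are higher in all 3 P12 libraries.

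Of 25 interferon response genes tested 13 rose and none fell, with a median of 1.39. All P10 libraries lay above all P12 libraries in 5 of them, where 14.8% of all genes tested did so. The summed level was 894, 902 and 1718 CPM in P10, against 438, 472 and 973 CPM in P12. *Irf7*, a factor that amplifies the response, was at 36.9, 38.2 and 98.3 CPM in P10, against 9.82, 5.63 and 32.2 CPM in P12 (log2 difference 2.04, standard error 0.53, limma adjusted p = 0.013). *Zbp1*, a sensor of nucleic acids, was at 33.8, 35.8 and 63.3 CPM in P10, against 4.91, 7.99 and 31.4 CPM in P12 (log2 difference 1.92, limma adjusted p = 0.013). Replicate 3 was the highest library of each sub-population, and its P12 value came close to P10 replicates 1 and 2. *Oas3* even overlapped, with 31.2, 27.8 and 75.0 CPM in P10, against 9.002, 9.57 and 31.5 CPM in P12 (log2 difference 1.49, limma adjusted p = 0.022). The count rested on several libraries: 6 genes were called without P10 replicate 3, and likewise 6 without P12 replicate 1 and 6 without P12 replicate 2. Without P12 replicate 3, 18 were called, and without replicate 3 of every sub-population, 16. *Ifi204* (log2 difference 1.57, limma adjusted p = 0.011) and *Ddx58* (log2 difference 2.25, limma adjusted p = 0.011) were among those called over all libraries.

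Genes lower in P10 included progenitor and cell cycle genes. Of 13 stem and progenitor genes tested 5 fell and 1, *Kit*, rose (median -0.93), next to 6.35% and 5.89% of all genes tested. The product of *Kit* set the gates apart, so its rise is no separate result. Without P10 replicate 1, 3 fell, without P10 replicate 2 or P12 replicate 1, 2, and after rescaling, 3. Besides *Cd34* and *Hoxa9* these were *Runx1*, a factor of blood formation (87.6, 88.3 and 124 CPM in P10, against 251, 186 and 194 CPM in P12, log2 difference -1.07, limma adjusted p = 0.00097), *Gata2*, a factor of progenitors and mast cells (4.82, 3.19 and 8.11 CPM in P10, against 16.1, 13.1 and 19.3 CPM in P12, log2 difference -1.57, limma adjusted p = 0.0055), and *Erg* (log2 difference -1.02, limma adjusted p = 0.018). The calls of *Runx1* and *Erg* were lost without P10 replicate 1, P10 replicate 2 or P12 replicate 1. *Myb*, a factor of dividing progenitors, was at 235, 235 and 254 CPM in P10, against 466, 492 and 375 CPM in P12 (log2 difference -0.87, standard error 0.16, limma adjusted p = 0.0026) and fell short of 2-fold. The genes with the largest downward differences had low to moderate levels. *Col19a1*, for a collagen chain, was at 5.65, 4.41 and 1.90 CPM in P10, against 35.0, 38.2 and 9.55 CPM in P12 (log2 difference -2.52, standard error 0.46, limma adjusted p = 0.0024). *Cnn3*, for an actin-binding calponin, was at 7.12, 6.96 and 7.56 CPM in P10, against 49.8, 61.4 and 22.7 CPM in P12 (log2 difference -2.43, standard error 0.31, limma adjusted p = 0.00040). *Bex6* was at 6.25, 6.15 and 6.21 CPM in P10, against 36.0, 32.6 and 17.8 CPM in P12 (log2 difference -2.07, limma adjusted p = 0.00036). P12 replicate 3 was the lowest P12 library in each. *Armcx4* (log2 difference -2.23), *Kctd14* (log2 difference -2.15), *Snrpf*, for a core protein of the spliceosome (log2 difference -2.09), *Hmgn5*, which binds nucleosomes (log2 difference -1.98), *Kcnip3* (log2 difference -1.97), *Ccdc18* (log2 difference -1.88), *B3gnt5*, a glycosyltransferase (log2 difference -1.87), and *Tctex1d1* (log2 difference -1.86) followed. *Gm7324* (log2 difference -1.88, limma adjusted p = 0.060) lost its call without P10 replicate 1, P10 replicate 2 or P12 replicate 1. Primary granule genes did not separate the groups in 1 direction, with 2 of 9 higher, *Ms4a3* and *Ctsc*, and none lower. Over all genes tested 5.89% were higher and 6.35% lower. Without P12 replicate 3, 2 rose and 2 fell, as they did without replicate 3 of every sub-population, and without P10 replicate 3, 1 fell. *Mpo*, for myeloperoxidase, was at 516, 580.0 and 934 CPM in P10, against 1807, 1139.8 and 696 CPM in P12 and overlapped (log2 difference -0.79, limma adjusted p = 0.23).

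Mitosis genes were lower in P10 in nearly every member. Of 25 tested 23 fell and none rose, with a median of -1.36, and all 25 had each P10 library under each P12 library, as 29.6% of all genes tested did. *Cenpf*, for a protein of the kinetochore, was at 33.7, 31.6 and 61.8 CPM in P10, against 142, 185 and 138 CPM in P12 (log2 difference -1.92, standard error 0.32, limma adjusted p = 0.0016). *Ccnb2*, for a cyclin of mitosis, had 16.2, 17.7 and 24.7 CPM in P10, against 58.8, 64.4 and 53.0 CPM in P12 (log2 difference -1.58, standard error 0.24, limma adjusted p = 0.00096). *Cdc20*, an activator of the anaphase-promoting complex, had 13.8, 14.1 and 21.7 CPM in P10, against 44.4, 47.0 and 43.1 CPM in P12 (log2 difference -1.44, limma adjusted p = 0.00064). *Kif23*, a motor of cytokinesis, had 27.8, 24.6 and 35.2 CPM in P10, against 76.6, 77.6 and 77.3 CPM in P12 (log2 difference -1.40, standard error 0.19, limma adjusted p = 0.00055). P12 replicate 3 was near the other P12 libraries in all of them, and P10 replicate 3 was the highest P10 library. *Mki67*, the gene of the Ki-67 antigen, named after its values were seen, was at 406, 381 and 755 CPM in P10, against 1383, 1511 and 1396 CPM in P12 (log2 difference -1.55, limma adjusted p = 0.0036). DNA replication genes fell in 24 of 36 members with none higher (median -1.21), and all 36 lay under P12 in every P10 library. *Mcm3*, of the replicative helicase, was at 53.9, 62.7 and 73.4 CPM in P10, against 198, 189 and 134 CPM in P12 (log2 difference -1.44, standard error 0.24, limma adjusted p = 0.0016). *Mcm5* was at 62.4, 76.2 and 105 CPM in P10, against 229.6, 220.1 and 181 CPM in P12 (log2 difference -1.39, standard error 0.22, limma adjusted p = 0.0014), and the polymerase subunit gene *Pole* at 32.4, 37.9 and 46.3 CPM in P10, against 97.8, 107 and 76.7 CPM in P12 (log2 difference -1.26, limma adjusted p = 0.00068). Here P12 replicate 3 was the lowest P12 library. *Timeless*, which stabilizes replication forks, was at 15.5, 14.9 and 20.1 CPM in P10, against 76.8, 77.6 and 37.4 CPM in P12 (log2 difference -1.83, limma adjusted p = 0.0019).

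The promoters of 3 mitosis and 2 replication genes are printed because these groups moved together. They were picked by hand, and each holds letters of a motif searched for its group. Promoters of these lists without such letters are not printed, so the printed ones do not stand for the lists. The motifs searched on both strands were TTTGAA, the core of the cell cycle genes homology region known from mitosis genes, CCAAT, the box bound by NF-Y, and TTTGGCGC, TTTCCCGC or TTTCGCGC for E2F factors. TTTGAA occurred in 14 of the 20 matched promoters of the mitosis list (70%), against 1049 of 8791 protein-coding genes tested (11.9%). CCAAT occurred in 16 of the 20 (80%), against 3510 of the 8791 (39.9%), and the E2F letters in 1 of the 20 (5%), against 342 of the 8791 (3.89%). For the replication list fewer than 80% matched and a share is void. A match describes the letters only. Capitals mark every match of these motifs, of the PU.1 letters and of the E-box CACGTG.
*Ccnb2*, chr9:70421505-70421804, minus strand: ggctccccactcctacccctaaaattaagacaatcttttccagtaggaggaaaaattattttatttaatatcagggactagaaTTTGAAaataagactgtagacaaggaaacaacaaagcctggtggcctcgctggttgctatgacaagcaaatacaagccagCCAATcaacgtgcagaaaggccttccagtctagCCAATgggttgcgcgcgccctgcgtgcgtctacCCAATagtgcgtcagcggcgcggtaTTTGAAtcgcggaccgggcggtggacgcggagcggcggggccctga
*Cdc20*, chr4:118437294-118437593, minus strand: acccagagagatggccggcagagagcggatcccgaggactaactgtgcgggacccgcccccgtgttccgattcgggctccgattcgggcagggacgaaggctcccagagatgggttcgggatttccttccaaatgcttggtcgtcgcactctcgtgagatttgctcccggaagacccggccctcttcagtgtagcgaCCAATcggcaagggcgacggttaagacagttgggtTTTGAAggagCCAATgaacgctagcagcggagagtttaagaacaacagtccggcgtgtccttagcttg
*Kif23*, chr9:61946750-61947049, minus strand: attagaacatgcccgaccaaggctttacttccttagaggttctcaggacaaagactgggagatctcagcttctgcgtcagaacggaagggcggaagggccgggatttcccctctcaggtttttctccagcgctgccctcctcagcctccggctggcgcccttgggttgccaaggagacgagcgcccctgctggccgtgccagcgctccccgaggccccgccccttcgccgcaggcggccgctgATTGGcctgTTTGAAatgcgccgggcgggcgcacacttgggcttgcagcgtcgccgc
*Mcm3*, chr1:20820263-20820562, minus strand: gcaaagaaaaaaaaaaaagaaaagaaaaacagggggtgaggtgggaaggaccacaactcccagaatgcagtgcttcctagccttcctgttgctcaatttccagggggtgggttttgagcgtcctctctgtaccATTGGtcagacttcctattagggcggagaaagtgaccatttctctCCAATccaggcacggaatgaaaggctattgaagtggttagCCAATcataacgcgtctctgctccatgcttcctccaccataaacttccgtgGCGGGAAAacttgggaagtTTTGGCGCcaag
*Mcm5*, chr8:75109259-75109558, plus strand: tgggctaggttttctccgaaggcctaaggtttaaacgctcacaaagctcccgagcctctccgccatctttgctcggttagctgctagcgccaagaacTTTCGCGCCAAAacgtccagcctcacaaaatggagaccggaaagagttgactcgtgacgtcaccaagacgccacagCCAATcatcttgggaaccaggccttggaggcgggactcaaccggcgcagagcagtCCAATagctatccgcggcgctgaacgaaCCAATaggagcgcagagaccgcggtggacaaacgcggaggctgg

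Counted from the start of each gene, *Cdc20* held CCAAT from positions -53 and -8 and TTTGAA from -18, and *Kif23* held ATTGG, which is CCAAT on the other strand, from -7 and TTTGAA from 3. *Mcm3* held E2F letters from positions 20 and 39, and *Mcm5* from -153 and -149. Among the regulators of G1, the phase before replication, 4 of 21 fell and none rose (median -0.51). *Ccnd1*, for cyclin D1, was at 12.7, 11.9 and 11.3 CPM in P10, against 64.6, 55.1 and 20.7 CPM in P12 (log2 difference -1.77, standard error 0.37, limma adjusted p = 0.0046). *Cdk4*, its kinase, was at 82.3, 85.0 and 88.2 CPM in P10, against 215, 196 and 132 CPM in P12 (log2 difference -1.05, limma adjusted p = 0.0018), with P12 replicate 3 the lowest P12 library in both. The *Cdk4* call was lost without P12 replicate 1 or P12 replicate 2, while 2 genes of this list fell without P12 replicate 1, 2 without P12 replicate 2, 2 after rescaling and 9 without P10 replicate 3. *E2f1* (log2 difference -0.91, limma adjusted p = 0.0042) stayed short of 2-fold, and *Cdkn2a*, for inhibitors of the cycle, was at 11.9, 16.6 and 12.6 CPM in P10, against 7.07, 7.37 and 6.02 CPM in P12 (log2 difference 0.95, limma adjusted p = 0.0069), short of 2-fold in the other direction.

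Genes of biosynthesis were lower too. In ribosome biogenesis 10 of 30 fell, next to 6.35% of all genes tested, and none rose (median -0.78). After the 6 libraries were rescaled 5 fell. Without P12 replicate 1, 6 fell, and without P12 replicate 2, 4. *Dkc1*, which modifies ribosomal RNA, was at 30.3, 28.1 and 31.9 CPM in P10, against 126, 116 and 62.3 CPM in P12 (log2 difference -1.67, standard error 0.24, limma adjusted p = 0.00082). *Nop58* was at 25.4, 22.9 and 35.6 CPM in P10, against 92.4, 104 and 65.2 CPM in P12 (log2 difference -1.62, standard error 0.24, limma adjusted p = 0.00098). *Ncl*, for nucleolin, had 307, 319 and 337 CPM in P10, against 736, 866 and 463 CPM in P12 (log2 difference -1.05, limma adjusted p = 0.0036), a call that was lost without P12 replicate 1 or P12 replicate 2. In all 3 genes P12 replicate 3 lay between the other P12 libraries and P10. In nucleotide synthesis 10 of 20 fell and none rose (median -1.01), while 5 fell after rescaling and 4 without P12 replicate 2. *Uck2*, which makes pyrimidine nucleotides from nucleosides, was at 27.8, 32.7 and 25.1 CPM in P10, against 73.8, 81.7 and 53.9 CPM in P12 (log2 difference -1.26, standard error 0.23, limma adjusted p = 0.0025), and *Impdh2*, of guanine nucleotide synthesis, had a log2 difference of -1.11, a call that was lost without P12 replicate 1. In the serine, one-carbon and methionine list 6 of 15 fell and none rose (median -0.92). *Shmt2*, which passes a carbon of serine to folate in mitochondria, was at 29.0, 34.2 and 31.6 CPM in P10, against 104, 85.8 and 63.4 CPM in P12 (log2 difference -1.38, standard error 0.17, limma adjusted p = 0.00036), with *Shmt1* (log2 difference -1.30), *Mthfd1* (log2 difference -1.20) and *Psat1* (log2 difference -1.15).

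Other housekeeping groups differed less. Of 19 chaperonin and heat shock genes 2 fell and none rose (median -0.77), a count that ran from 0 without P12 replicate 2 to 5 without P10 replicate 3. Of 20 aminoacyl-tRNA synthetase genes none passed in either direction (median -0.50), and of 19 glycolysis genes 1 rose and none fell (median 0.24). Without P10 replicate 1 or P12 replicate 1, 2 of them rose. Over all genes tested 5.89% rose and 6.35% fell, and so few calls are no result about these lists. *Hsp90ab1* was at 971, 1052 and 1019.7 CPM in P10, against 1938, 1927 and 1389 CPM in P12 (log2 difference -0.77, limma adjusted p = 0.0027). *Eprs* was at 85.0, 90.9 and 86.9 CPM in P10, against 176, 205 and 128 CPM in P12 (log2 difference -0.93, limma adjusted p = 0.0020), both under P12 in each P10 library but short of 2-fold. *Eno1*, for a glycolytic enzyme, was at 518, 521 and 452 CPM in P10, against 283, 290.1 and 369 CPM in P12 (log2 difference 0.67, limma adjusted p = 0.0073), in the other direction and also short of 2-fold, and the member that rose was *Eno3* (log2 difference 1.14, limma adjusted p = 0.028).

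The position of P12 replicate 3 differed between gene groups, over genes called without it. Its median position was 0.86 over 18 interferon response genes, 0.62 over 15 pattern recognition genes, 0.59 over 8 lysosome genes, 0.57 over 12 monocyte genes and 0.53 over 21 Fc and paired receptor genes, all higher in P10. It was lower over other such groups, at 0.40 over 11 chemoattractant receptor genes, 0.31 over 13 complement and coagulation genes, 0.24 over 8 immediate early genes and 0.22 over 8 macrophage genes. Among genes lower in P10 it was 0.66 over 5 genes of G1, 0.48 over 13 of ribosome biogenesis, 0.38 over 12 of nucleotide synthesis and 0.32 over 26 of DNA replication. It was 0.052 over 23 mitosis genes, of which the lowest lay at -0.19 and the highest at 0.23, and -0.49 over 13 neutrophil genes. So this library stood at the P10 side for interferon genes, about midway for monocyte, lysosome and Fc receptor genes, nearer to P12 for macrophage and complement genes, and with the other P12 libraries for mitosis genes. P10 replicate 3 lay towards P12 over 24 mitosis genes (0.44) and away from it over 12 neutrophil genes (-1.05) and 6 interferon response genes (-0.87).

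**Figure D5:**
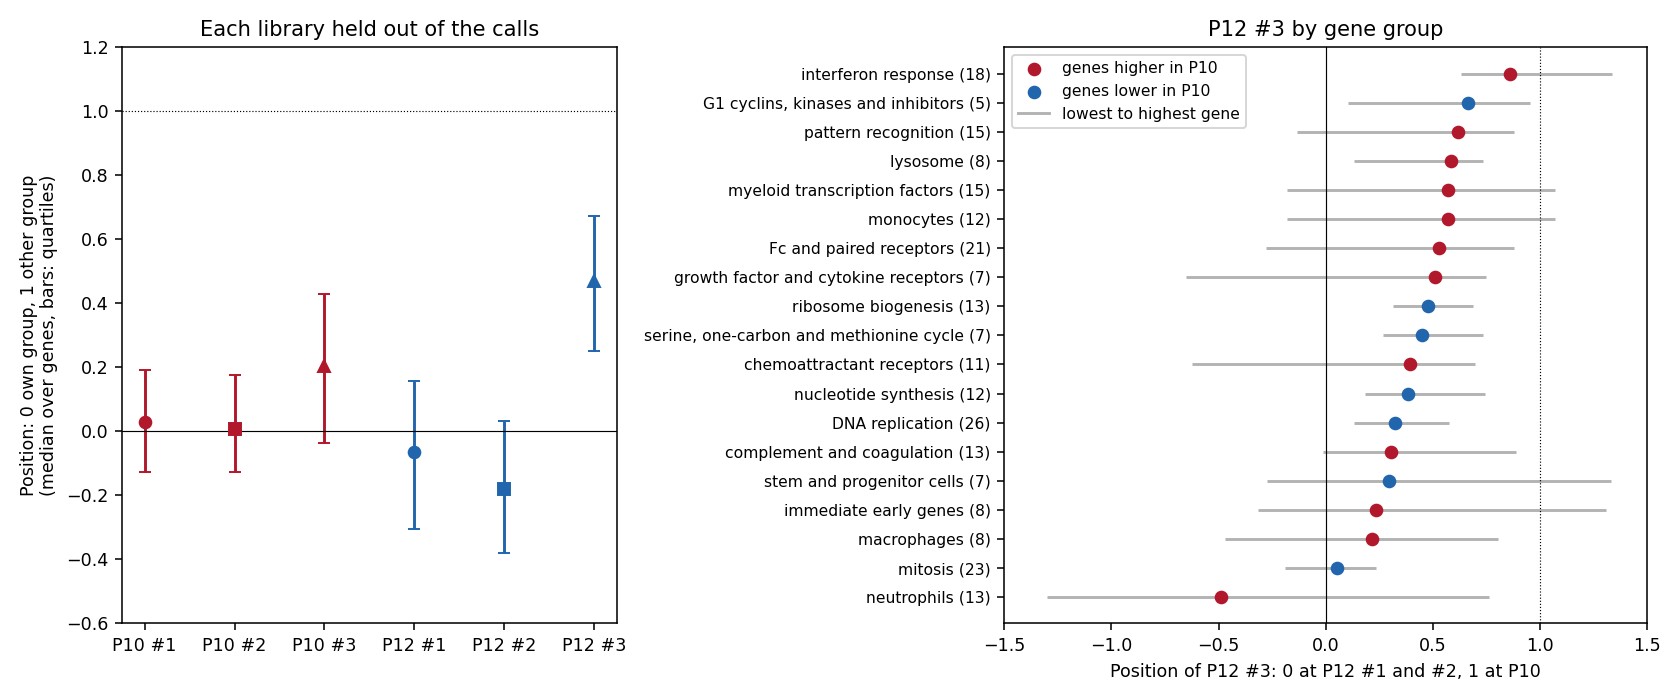
Left, median position of each library (symbols) with quartiles over genes (bars), where 0 is the mean of the rest of its own sub-population and 1 that of the other. Right, position of P12 replicate 3 by gene group, with the number of genes in parentheses, the median (point) and the lowest to highest gene (line): 0.86 for interferon response genes, 0.052 for mitosis genes and -0.49 for neutrophil genes.

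Many defining markers of other cell types were at or near 0 in both sub-populations, but the B cell, erythroid, dendritic and stromal lists were not. Of 11 T and NK cell genes with values 10, all but *Cd2*, were under 1 CPM in all 6 libraries and *Cd3g* was at 0, and the summed level was 2.80, 2.86 and 2.52 CPM in P10, against 1.04, 1.95 and 0.579 CPM in P12. Megakaryocyte genes summed to 7.23, 8.54 and 5.37 CPM in P10, against 3.87, 5.18 and 4.51 CPM in P12. The B cell list summed to 248, 269 and 219.8 CPM in P10, against 500.2, 497 and 412 CPM in P12, most of it from 1 gene. *Ighm*, for an immunoglobulin heavy chain, was at 215, 238 and 187 CPM in P10, against 472, 472 and 386 CPM in P12 (log2 difference -1.05, limma adjusted p = 0.0013), a call that was lost without P10 replicate 3. *Cd22*, an inhibitory receptor, rose (log2 difference 1.40, limma adjusted p = 0.0057), and *Cd79a* did not reach 1 CPM. Erythroid genes summed to 108, 125 and 102 CPM in P10, against 98.3, 113 and 81.6 CPM in P12, mostly from globin genes, whose near-identical copies may share reads, and *Tfrc*, the transferrin receptor, fell (log2 difference -1.05, limma adjusted p = 0.047) with libraries that overlapped. Its call was lost without P10 replicate 1, P10 replicate 2, P12 replicate 1 or P12 replicate 2 and after rescaling. The stromal and endothelial list summed to 109.6, 119 and 97.4 CPM in P10, against 214, 229 and 165 CPM in P12. Of its genes *Pecam1*, which myeloid progenitors also express, fell (log2 difference -1.08, limma adjusted p = 0.00080), a call that was lost without P10 replicate 3 or P12 replicate 2, *Vcam1*, also a macrophage gene, rose (log2 difference 2.19, limma adjusted p = 0.0074), and *Cdh5* and *Col3a1* stayed under 1 CPM. Basophil, mast cell and eosinophil genes summed to 10.4, 12.1 and 15.1 CPM in P10, against 15.2, 19.6 and 14.2 CPM in P12, with *Mcpt8* at 5.75, 7.18 and 3.13 CPM in P10, against 11.7, 15.9 and 7.06 CPM in P12, which overlapped (log2 difference -1.04, limma adjusted p = 0.044) and lost its call without P10 replicate 3, P12 replicate 1 or P12 replicate 2. The dendritic cell list summed to 339.9, 347 and 201 CPM in P10, against 642, 721 and 289 CPM in P12, mainly from *Flt3* and *Tcf4*. Of its genes *Itgax* rose and *Siglech*, a receptor of plasmacytoid cells, was at 0.603, 1.31 and 0.168 CPM in P10, against 2.46, 2.08 and 2.32 CPM in P12 (log2 difference -1.34, limma adjusted p = 0.023), a call that was lost without P10 replicate 3, while *Xcr1* and *Zbtb46* stayed under 1 CPM. The markers named here as at 0 or under 1 CPM were named after their values were seen.

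P9 and P11 share no library with P10 and P12, and P9 against P11 also sets a Mac1+ gate against a Mac1- one, though all 4 means share 1 estimate of the spread and possibly mice. The gates of P9 and P11 differ in CD9 and CD48 too and are both cKit+, so what goes with Mac1 alone cannot be told apart. In that fit 1160 (9.28%) of the same 12499 genes were higher and 6068 (48.5%) lower in P9. Of the 736 genes higher in P10 than P12, 394 (53.5%) were also higher in P9 than P11, which is 34.0% of those 1160, and 118 were lower in P9. Of the 794 genes lower in P10, 725 (91.3%) were also lower in P9, beside the 48.5% of all genes that were. All 15 neutrophil genes and 15 of the 20 Fc and paired receptor genes that rose in P10 were higher in P9 than in P11 as well. Of the 9 monocyte genes that rose in P10, 4 were higher in P9 and 3 lower. *Fn1* averaged 2205 CPM in P10, 20.6 in P9, 94.2 in P11 and 232 in P12, and *Thbs1* 249, 2738, 11.04 and 18.7 CPM in the same order.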

How the data were processed

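RNA was measured in 12 libraries of ML23 cells, of which the 3 of P10 and the 3 of P12 are compared here. According to the processing notes of the submitters, the tools were STAR 2.5.3a, Bowtie2 and Partek, with bcl2fastq 2.17, DESeq2 3.5 and DESeq beside them and mm10 as the build. By the methods of the study, reads of 61 bases were aligned with STAR to Ensembl release 92 and quantified with the Partek E/M algorithm. The deposited values are CPM with 0.0001 added by the authors, for 20202 genes. The offset was subtracted. Of values up to 20 alignments, 76.9 to 79.0% in these 6 libraries lay within 0.1 of a whole number, so whole reads were not recovered and no count test was run.

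Values were transformed as log2(CPM + 0.5), which understates the change of low genes. Where 3 or more of the 6 libraries reached 1 CPM, genes were fitted with limma 3.58.1 (R 4.3.3) over all 12 libraries, with 1 mean per sub-population and an intensity trend. The Benjamini-Hochberg adjustment ran over every tested gene, and a call needed an adjusted p below 0.1 and a change of over 2-fold. The script was tested on simulated data. Differences are P10 minus P12.

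Named are in each direction the 15 called protein-coding genes that differed most, given no overlap of the libraries and a mean of at least 10 CPM on the higher side, the sort markers, the factors of ML23, *Cd34*, *Cd84*, *Cd47*, *Cd93*, and up to 6 members of each of 37 lists with the smallest adjusted p. Others are said to be named after their values were seen. The comparison, the members and the lists were chosen with earlier results of these data known. Some lists share members, such as *Nr4a1* and *Klf4* among monocyte markers and myeloid transcription factors. Counts and positions of different lists are therefore not independent. Alternatives were pseudocounts of 0.1 and 2, no filter, filters of 10 CPM and over all 12 libraries, rescaling, library weights, these 6 libraries alone, a block for the replicate number, omission of each library in turn, replicate 3 left out everywhere, protein-coding genes alone, no trend, an adjusted p of 0.05 and an arithmetic fold. Rescaling over the 6 libraries was added after the data were seen. Promoters are from RefSeq, GRCm38.p6. Tables and plots were made with pandas 2.3.3 and matplotlib 3.10.9 in Python 3.11.15.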

Additional observations from a re-analysis of the deposited data

How the results depend on the processing

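The number of genes higher in P10 than P12 was 460 with a filter of 10 CPM, and that of genes lower in P10 than P12 was 491, and with a pseudocount of 2, 576 were higher and 486 lower. Without replicate 3 of every sub-population 1042 were higher and 1290 lower. Leaving out 1 of the 12 libraries at a time gave 626 to 988 genes higher and 566 to 1129 lower. Of the 140 named genes that were called, 114 kept their call whichever library was left out, and no named gene changed direction with a call under any alternative. The largest losses of named calls were 18 without P12 replicate 2 and 15 without P12 replicate 1, 13 after rescaling over the 6 libraries, 12 after rescaling over all 12 and 10 with a pseudocount of 2. The cause of these losses was not tested.

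The labels do not tie replicate numbers to mice, and the pairing is not settled by the values. Deviations of same-numbered P10 and P12 libraries from their group means correlated across genes at -0.017, 0.12 and 0.14, so not every pair passed 0.1, and P10 replicate 1 correlated best with P12 replicate 2 (0.20). Over all sub-populations 13 of 18 same-numbered pairs passed 0.1, against 9 of 36 others, and P10 with P11 gave 0.16 to 0.55. With the replicate number as a block 772 genes were higher and 808 lower. The positions of the libraries moved by less than the spread between replicates with a filter of 10 CPM or with rescaling. Values of a few CPM rest on few alignments, from 100 cells and 14 cycles of amplification, and their spread between libraries limits what can be called.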

Other observations

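Of 279 lincRNA genes tested, 26 (9.32%) were higher and 21 (7.53%) lower in P10, and of 420 processed pseudogenes 12 (2.86%) were higher and 34 (8.10%) lower, next to 646 (5.94%) and 692 (6.36%) of 10872 protein-coding genes. Reads of processed pseudogenes may come from their parent genes.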
